A study of Mus musculus with 6 samples.

Results

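The dual-specificity MAP kinase phosphatases are 10 genes of the DUSP family, DUSP1, DUSP2, DUSP4, DUSP5, DUSP6, DUSP7, DUSP8, DUSP9, DUSP10 and DUSP16. All 10 have a row among the 20499 genes of the deposited count table. They were chosen by family membership and by the comparison of the shRNF11 with the shControl libraries, whose fold changes were known when the family was proposed. Their fold changes in that comparison are therefore a description of the family, and no p-value is given for a member. The deposited annotation gives the same set: the term MAP kinase tyrosine phosphatase activity is attached to exactly these 10 genes.

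MAP kinases carry growth factor and stress signals in 3 main branches, the ERK, JNK and p38 kinases, and are switched on when a threonine and a tyrosine of their activation loop are phosphorylated. The phosphatases of this family remove both phosphates and so end the signal. DUSP1, DUSP2, DUSP4 and DUSP5 are nuclear enzymes whose genes are induced by the signals that they shut off. DUSP6, DUSP7 and DUSP9 are cytoplasmic and act mainly on ERK, and DUSP8, DUSP10 and DUSP16 act mainly on JNK and p38. In liver, DUSP1 is known as a brake on the stress kinases and as a gene that glucocorticoids induce.

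RNA was sequenced from cells labelled AML12, an immortalized hepatic line, in 2 groups of 3 libraries. The shControl cells, with genotype WT in the labels, are the knockdown controls, and in the shRNF11 cells a lentivirus had been used to lower RNF11, a gene of a RING-type ubiquitin ligase. Both groups had been through hypoxia and reoxygenation, with 6 h at 1% oxygen without glucose or serum and then complete medium in normal air. The complete medium held 10% fetal bovine serum, insulin, transferrin, selenium and dexamethasone, a glucocorticoid, at 40 ng/mL. The series title names RNF11, HINT1 and PI3K/AKT activation in liver ischemia reperfusion injury, and phosphatase protein and kinase phosphorylation were not analysed here. The sources used here give neither the hairpin sequence nor the time from reoxygenation to harvest. No library from cells kept in normal air was analysed here.

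Library totals were 37485850 to 39045440 counts. RNF11 had 1926 to 2050 counts per shControl library and 565 to 599 per shRNF11 library (log2 fold change -1.73, SE 0.0633, edgeR quasi-likelihood adjusted p = 3.48e-28), so RNF11 followed the group label in each library. The labels give mouse, whereas 0 of the table's Entrez numbers are found among mouse RefSeq genes, and its KEGG terms are human; whether the table comes from the labelled line could not be settled from the sources used here. Of 15 hepatocyte markers, 9 have a row and 0 had enough reads to test, with summed levels of 0.413 to 0.594 CPM in shControl and 0.289 to 0.778 CPM in shRNF11, and 1 read of APOA1 in all. Genes are named as in the table, and the cells are called by their group. On the second principal component shRNF11 replicate 1 (26.4) stood apart from replicates 2 (-13.6) and 3 (-11.5) of its group. The labels do not say that replicates were separate cultures, so the spread between them may be technical.

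The family did not move as one. In shRNF11 cells DUSP1 and DUSP2, both nuclear and inducible, were higher, while DUSP8 and DUSP16, both of the JNK and p38 branch, were lower. DUSP4, DUSP5, DUSP6, DUSP7, DUSP9 and DUSP10 did not pass the threshold of an adjusted p of 0.05. Thus 4 of 10 members passed, 2 in each direction, and the DUSP2 call was lost in 8 of 13 alternative settings. Across all 13489 genes tested 32.1% passed, 17.4% as higher and 14.7% as lower, and because the family was proposed with this comparison known, nothing is read from its count. The median log2 fold change was 0.03 over the 10 members and -0.01 over all tested genes. Levels below are in CPM, counts of a gene per 1000000 of the scaled library total. CPM is not divided by transcript length, so it is compared between groups within a gene and not between genes.

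**Figure D1:**
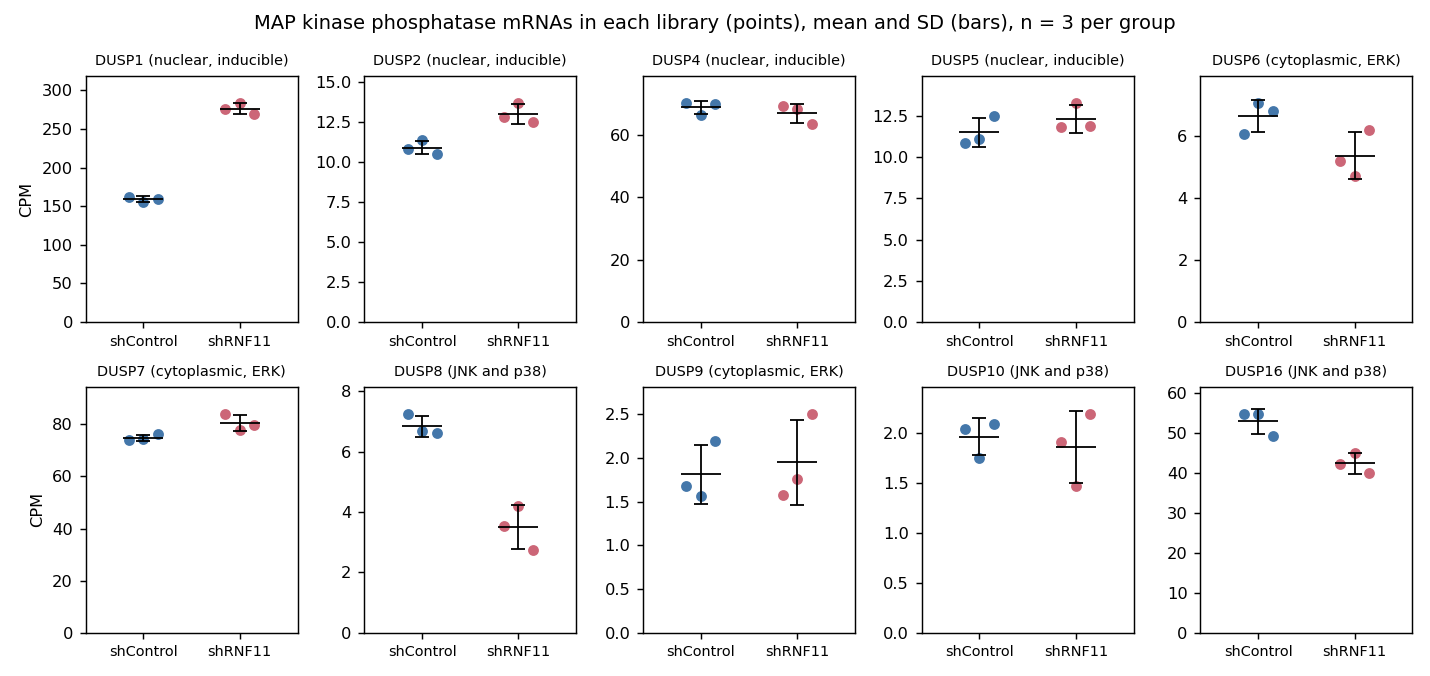
Level of each MAP kinase phosphatase mRNA in CPM (vertical axes, each from 0) in the 3 shControl and 3 shRNF11 libraries. Points are libraries, the wide bar is the mean and the capped bar the SD; the groups are apart for DUSP1, DUSP2, DUSP7, DUSP8 and DUSP16 and overlap for the other 5 genes.

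DUSP1 (Entrez 1843), which acts on p38, JNK and ERK in the nucleus, showed the greatest rise of the family. The shControl libraries held 6293, 5938 and 6177 counts of it, and the shRNF11 libraries 10291, 10780 and 10227. The groups lay well apart, with the lowest shRNF11 library 1.66-fold above the highest shControl library. Mean levels were 159.0 ± 3.86 CPM in shControl and 276.4 ± 6.81 CPM in shRNF11 (SD, n = 3 each), which was 1.74-fold higher (log2 fold change 0.80, SE 0.0317). Of all tested genes, 4.69% had a larger change in either direction. Without shRNF11 replicate 1 the log2 fold change was also 0.80, and that of DUSP8 was -0.98 and of DUSP16 -0.31. These are bulk libraries, in which fewer cells making an mRNA and less of it per cell cannot be told apart.

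DUSP2 (Entrez 1844), a nuclear phosphatase best known from activated immune cells, was higher by a much smaller amount. Its counts were 419, 436 and 408 in shControl and 478, 521 and 474 in shRNF11. All 3 shRNF11 libraries lay above all 3 shControl libraries, but the gap between the nearest of them was 1.10-fold. Levels were 10.9 ± 0.423 CPM and 13.0 ± 0.617 CPM (log2 fold change 0.25, SE 0.100, 1.19-fold). This call was close to the threshold and was lost in 8 of 13 alternative settings. It was lost without shControl replicate 1 (log2 fold change 0.25), 2 (0.28) or 3 (0.23) and without shRNF11 replicate 1 (0.27) or 2 (0.22), so that the number of members called higher fell to 1 in 7 settings.

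The other nuclear members did not pass the threshold. DUSP4 (Entrez 1846), which acts on ERK, JNK and p38, had 2714, 2548 and 2706 counts in shControl and 2575, 2593 and 2402 in shRNF11. The ranges overlapped, at 68.8 ± 2.05 CPM and 66.9 ± 3.07 CPM (log2 fold change -0.04, 95% interval -0.13 to 0.05). DUSP4 was thus measured precisely, with a coefficient of variation of 2.98% in shControl and 4.60% in shRNF11. DUSP5 (Entrez 1847), a nuclear phosphatase specific for ERK, had 420, 426 and 483 counts in shControl and 439, 504 and 449 in shRNF11, again overlapping. Its levels were 11.5 ± 0.875 CPM and 12.3 ± 0.831 CPM (log2 fold change 0.10, 95% interval -0.11 to 0.30).

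Among the phosphatases of the JNK and p38 branch, DUSP8 (Entrez 1850) showed the steepest fall of the family. It had 281, 256 and 256 counts in shControl and 132, 160 and 104 in shRNF11. Every shRNF11 library was below every shControl library, with a gap of 1.57-fold between the nearest of them, and shRNF11 replicate 3 was the lowest. Levels were 6.85 ± 0.355 CPM in shControl and 3.50 ± 0.732 CPM in shRNF11, or 1.96-fold lower (log2 fold change -0.97, SE 0.159), and 2.77% of tested genes had a larger change. The shRNF11 libraries differed from each other by more than counting error: the coefficient of variation was 20.9%, against 8.70% that counts of this size give on their own. With any 1 library left out, the estimate stayed between -1.12 and -0.82. DUSP8 has near-identical pseudogene copies in the human genome, and how the authors' counting divided reads among such copies is not stated in the sources at hand.

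DUSP16 (Entrez 80824), a JNK-directed phosphatase that shuttles between nucleus and cytoplasm, was lower to a smaller extent. It had 2121, 2101 and 1907 counts in shControl and 1573, 1716 and 1516 in shRNF11. The groups did not overlap, and the lowest shControl library was 1.09-fold above the highest shRNF11 library. Levels were 52.9 ± 3.19 CPM and 42.4 ± 2.57 CPM (log2 fold change -0.32, SE 0.0548, 1.25-fold lower). DUSP10 (Entrez 11221), which acts on p38 and JNK, was little expressed, with 79, 67 and 81 counts in shControl and 71, 56 and 83 in shRNF11. At that depth its interval was wide, with a log2 fold change of -0.08 and a 95% interval from -0.61 to 0.46, so a change of the size seen in DUSP16 was not detectable.

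The cytoplasmic ERK phosphatases gave 0 of 3 members past the threshold. DUSP6 (Entrez 1848), a feedback inhibitor whose gene is itself switched on by ERK signalling, had 235, 271 and 264 counts in shControl and 194, 180 and 235 in shRNF11. A single shRNF11 library, replicate 3, reached into the shControl range. Levels were 6.65 ± 0.520 CPM and 5.38 ± 0.749 CPM (log2 fold change -0.31, SE 0.142, 95% interval -0.59 to -0.02). That interval is not adjusted for the number of genes tested. DUSP6 passed as lower without shRNF11 replicate 3 (log2 fold change -0.42) and under scaling to library totals (-0.37).

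DUSP7 (Entrez 1849) had 2868, 2851 and 2949 counts in shControl and 3131, 2962 and 3024 in shRNF11. Its groups did not overlap, by a margin of 1.02-fold, at 74.9 ± 1.14 CPM and 80.5 ± 3.14 CPM (log2 fold change 0.11, SE 0.0431). DUSP7 passed as higher when shRNF11 replicate 2 was left out (0.13). DUSP9 (Entrez 1852), known from placenta and insulin-responsive tissues, had 65, 60 and 85 counts in shControl and 59, 67 and 95 in shRNF11. The groups overlapped, and with so few counts the 95% interval of the log2 fold change of 0.11 ran from -0.44 to 0.65.

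**Figure D2:**
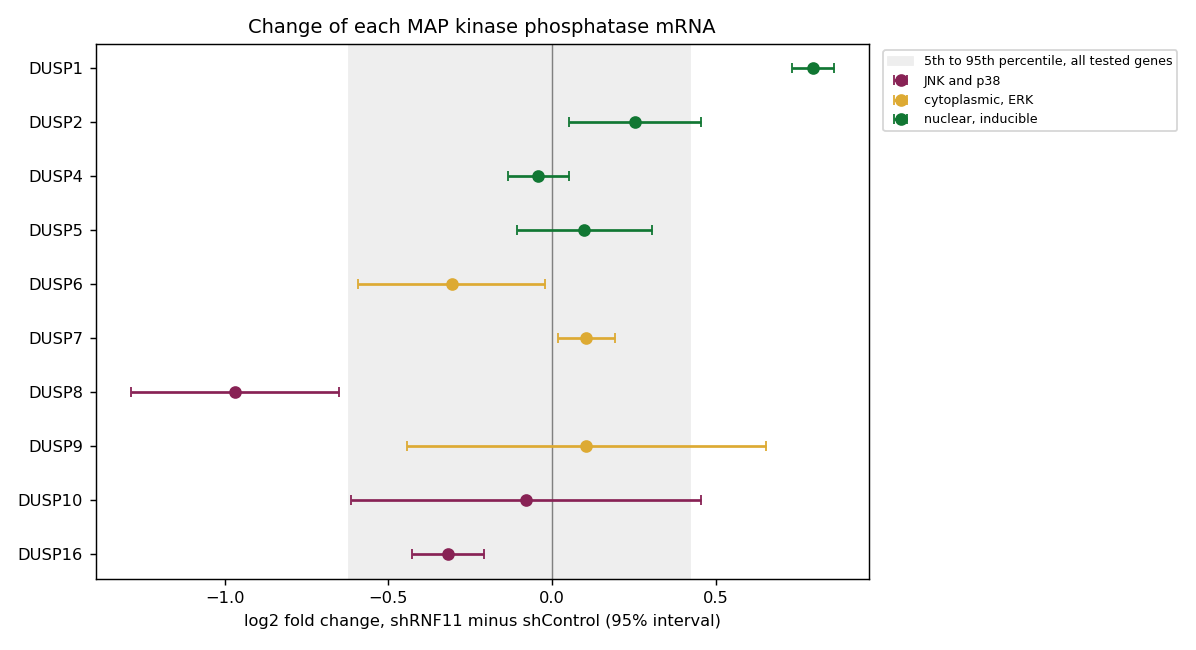
Log2 fold change of each MAP kinase phosphatase (horizontal axis, shRNF11 minus shControl) with its unadjusted 95% interval, coloured by subfamily. The grey band spans the 5th to 95th percentile of all tested genes, -0.62 to 0.42; DUSP1 at 0.80 and DUSP8 at -0.97 lie outside it and the other 8 members inside.

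In all, 5 of the 10 members had groups that did not overlap (DUSP1, DUSP2, DUSP7, DUSP8 and DUSP16), where 42.8% of all tested genes did. Fold changes across the transcriptome depended on abundance. With tested genes divided into 5 equal bins by mean level, the median log2 fold change was -0.16 in the lowest bin and 0.06 in the highest. DUSP1 lay in the highest bin, and its 0.80 was 0.73 above the median there. DUSP8, with its log2 fold change of -0.97, lay in bin 2 from the bottom, where the median was -0.09. DUSP16 and DUSP2 stood -0.33 and 0.35 from the medians of their bins. DUSP9 and DUSP10, in the lowest bin, had the largest relative spread among shControl replicates, with coefficients of variation of 18.5% and 9.49%, and counting alone gives 12.0% and 11.5% at their depth.

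**Figure D3:**
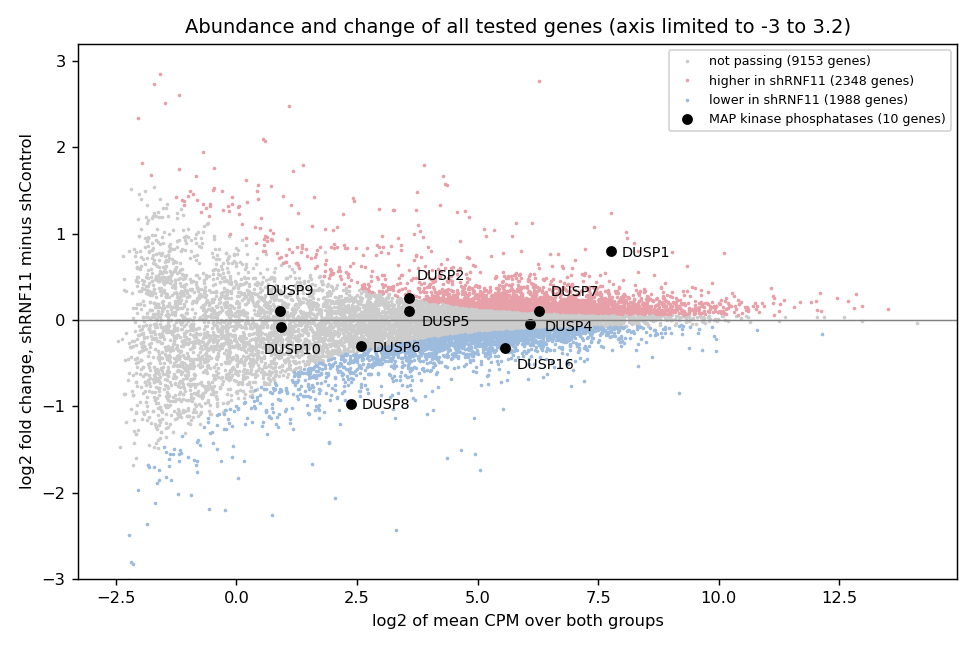
Log2 of the mean CPM over both groups (horizontal axis) against log2 fold change (vertical axis, shRNF11 minus shControl, limited to the range shown) for the tested genes, coloured by whether they passed an adjusted p of 0.05. The 10 phosphatases are black; DUSP1 lies high among abundant genes, DUSP8 low among sparse ones, and DUSP9 and DUSP10 sit where few genes passed.

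Summed over the 10 genes, phosphatase mRNA was 395.3 ± 5.10 CPM in shControl and 504.3 ± 11.9 CPM in shRNF11 (SD, n = 3 each), a ratio of 1.28. Without DUSP1 the sum was 237.7, 235.1 and 236.1 CPM in shControl and 232.1, 230.3 and 221.1 CPM in shRNF11, a ratio of 0.964. DUSP1 alone was 117.4 CPM higher in shRNF11, against 109.0 CPM for the sum of all 10 genes. DUSP1 held 40.2% ± 0.463 of the family's reads in shControl and 54.8% ± 0.440 in shRNF11. DUSP16 held 13.4% ± 0.838 and 8.41% ± 0.331, and DUSP8 1.73% ± 0.0732 and 0.692% ± 0.130. Shares add to a fixed whole, so a larger DUSP1 share lowers those of the other genes. DUSP2 and DUSP7, whose mean CPM was higher in shRNF11, also lost share, from 2.76% to 2.58% and from 18.9% to 16.0%. Unchanged DUSP4 went from 17.4% to 13.3%, so a smaller share is not by itself a fall of a gene. These shares are of reads and depend on transcript length, so they are not compared between genes.

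By subfamily, the nuclear inducible genes summed to 243.8 to 254.3 CPM in shControl and 357.5 to 378.5 CPM in shRNF11. That separation rested on DUSP1: DUSP2, DUSP4 and DUSP5 together gave 91.8, 88.9 and 92.9 CPM in shControl and 93.7, 95.1 and 87.7 CPM in shRNF11, which overlapped. DUSP8, DUSP10 and DUSP16 summed to 58.0 to 64.1 CPM in shControl and 44.9 to 50.8 CPM in shRNF11, most of it DUSP16. These sums did not overlap. They leave out DUSP1 and DUSP4, which also act on JNK and p38, and DUSP1 alone was 117.4 CPM higher in shRNF11. The sums are therefore not a total for phosphatases of JNK and p38. The cytoplasmic ERK phosphatases summed to 81.8 to 85.2 CPM and 84.4 to 90.8 CPM, which overlapped.

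**Figure D4:**
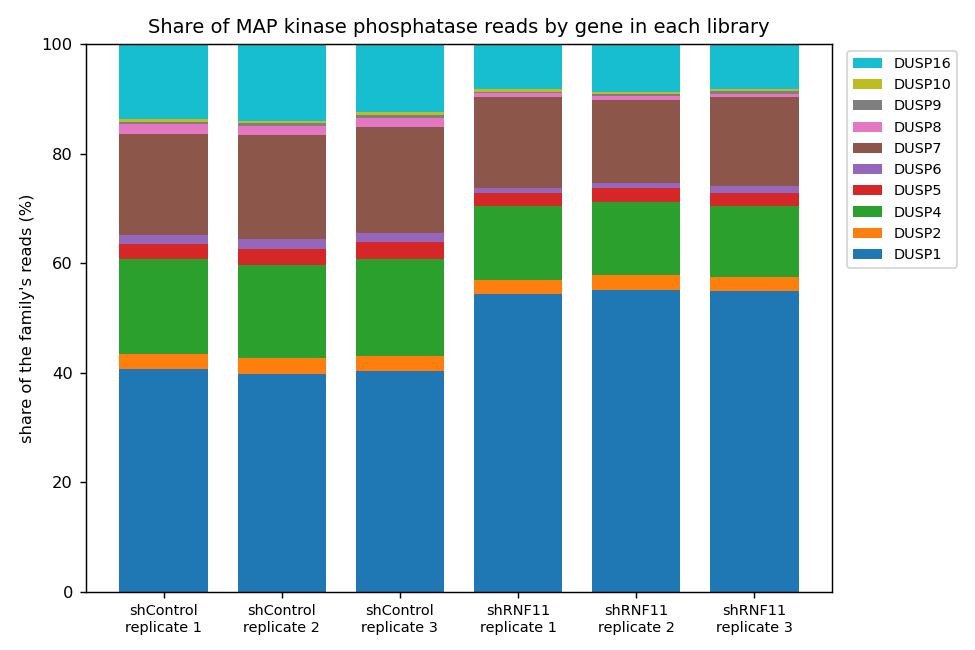
Share of the reads of the 10 phosphatase genes held by each gene (vertical axis, percent) in each of the 6 libraries. The DUSP1 segment averages 40.2% in shControl and 54.8% in shRNF11. The mean shares of all other genes, DUSP16 among them, are smaller in shRNF11, because shares add to a fixed whole.

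Related phosphatases were compared next. The atypical dual-specificity phosphatases share the catalytic fold but lack the domain that binds MAP kinases. Of 14 with a row, 12 were tested, and 1 was higher, 0 lower and 11 did not pass. Thus 8.33% were called, against 32.1% of all tested genes, with a median log2 fold change of 0.01. Calls depended on abundance, with 3.30% of genes higher and 5.89% lower in the lowest abundance bin. Several atypical genes were sparse, such as DUSP23, DUSP19 and DUSP18 at 0.744, 1.61 and 2.98 CPM in shControl. The low share is therefore not read as a trait of this group. DUSP14, the one that passed, was 1.19-fold higher at 52.9 ± 1.35 CPM against 44.2 ± 3.50 CPM (edgeR adjusted p = 1.74e-04). DUSP22, a regulator of JNK signalling, did not overlap between groups but did not pass, with a log2 fold change of -0.20 (adjusted p = 0.0657). Among other phosphatases that act on MAP kinases, 5 were tested, and 1 was higher and 2 lower (60% called, beside the same 32.1%). PPP2CA, a catalytic subunit of protein phosphatase 2A, was 1.09-fold higher (adjusted p = 8.91e-04), a call that was lost with scaling by library totals (log2 fold change 0.06 in place of 0.12). PPM1D and PPM1A, serine/threonine phosphatases that act on p38 among other proteins, were 1.17-fold and 1.13-fold lower (adjusted p = 0.00313 and 0.00902).

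Among the kinases that these phosphatases act on and their activators, the differences that passed were small. In the ERK cascade, from adaptors and RAS to ERK itself, 5 of 16 tested genes were higher and 1 lower. That was 37.5% called, near the 32.1% of all tested genes, with a median log2 fold change of 0.05. NRAS was 1.15-fold higher at 134.2 ± 2.64 CPM against 116.4 ± 4.67 CPM (edgeR adjusted p = 1.45e-05). MAP2K2, which encodes an ERK-activating kinase, was 1.13-fold higher at 136.4 ± 10.3 CPM against 120.2 ± 0.711 CPM (adjusted p = 2.76e-04). PTPN11, a tyrosine phosphatase needed for RAS activation, was 1.08-fold higher (adjusted p = 0.00272), which did not pass with scaling by library totals.

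In the JNK and p38 cascades 1 of 17 tested genes was higher and 1 lower, a share of 11.8%, against 32.1% of all tested genes. MAP2K3, an activator of p38, was 1.19-fold higher at 72.9 ± 5.40 CPM against 61.4 ± 1.58 CPM (edgeR adjusted p = 4.83e-05). MAPK8, which encodes a JNK, was 1.19-fold lower at 21.6 ± 0.459 CPM against 25.7 ± 0.670 CPM (adjusted p = 0.00448). MAPK14, the main p38 gene, had a log2 fold change of 0.05 and did not pass (adjusted p = 0.260).

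DUSP4, DUSP5 and DUSP6 are themselves among the genes that ERK signalling induces, and other genes of that kind went both ways. Of 20 tested, 5 were higher, 5 lower and 10 did not pass (50% called, against 32.1% of all tested genes). Their median log2 fold change was -0.09. CCND1, the cyclin of G1 entry, was 1.38-fold higher at 301.3 ± 0.734 CPM against 218.8 ± 4.34 CPM (edgeR adjusted p = 1.89e-18), and MYC was 1.21-fold higher (adjusted p = 6.69e-13). IER3, which encodes an ERK substrate, was 1.58-fold lower at 63.6 ± 2.95 CPM against 100.6 ± 3.02 CPM, and IER2 was 1.35-fold lower (adjusted p = 6.47e-18 and 1.73e-10). Named after their values were seen, the feedback inhibitor SPRY2 (log2 fold change -0.42, SE 0.0811) and the ERK-induced PHLDA1 (-0.41, SE 0.0782) were lower, as was the AP-1 gene JUNB (-0.24, SE 0.0446), while EPHA2 (0.18), FOSL1 (0.23) and ETV4 (0.23) were higher. The other SPRY and SPRED feedback inhibitors of the list did not pass. Their log2 fold changes were -0.30 for SPRY1, -0.23 for SPRED3, -0.01 for SPRY4, 0.02 for SPRED1 and 0.03 for SPRED2.

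Of 15 tested genes for proteins that MAP kinases phosphorylate, 3 were higher and 3 lower (40% called, against 32.1% of all tested genes). JUND, a transcription factor targeted by JNK, was 1.62-fold lower at 37.3 ± 0.595 CPM against 60.5 ± 0.536 CPM (edgeR adjusted p = 3.37e-16). JUN and ATF2 of the same list had log2 fold changes of 0.08 and -0.04 and did not pass. The ETS factors ELK1 and ELK3 moved apart, ELK1 1.12-fold lower and ELK3 1.21-fold higher (adjusted p = 2.99e-04 and 4.30e-04). RPS6KA4, a kinase activated by ERK and p38, was 1.15-fold higher (adjusted p = 1.89e-04).

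Proteins that bind AU-rich mRNAs control the stability of DUSP1 mRNA among others, and their part in its difference was not tested. Of 6 genes for such proteins, the mRNA was higher in 4 cases and lower in 0. That was 66.7% called, against 32.1% of all tested genes, where 17.4% were called higher. Of the 6, 4 lay in the highest of the 5 abundance bins (HNRNPD, KHSRP and ZFP36L1, which passed, and ELAVL1, which did not), where 42.8% of all tested genes were called higher and 12.9% lower. ZFP36L2, in bin 4 from the bottom, had a log2 fold change of -0.0002 and did not pass. ZFP36 lay in bin 2 from the bottom, where 6.30% were higher. ZFP36, itself an inducible gene whose product speeds the decay of such mRNAs, was 1.58-fold higher at 6.55 ± 0.656 CPM against 4.14 ± 1.21 CPM (edgeR adjusted p = 0.00119). Its highest shControl library was at 5.50 CPM and its lowest shRNF11 library at 5.94 CPM. ZFP36L1 was 1.15-fold, KHSRP 1.14-fold and HNRNPD 1.11-fold higher (adjusted p at most 2.66e-05).

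**Figure D5:**
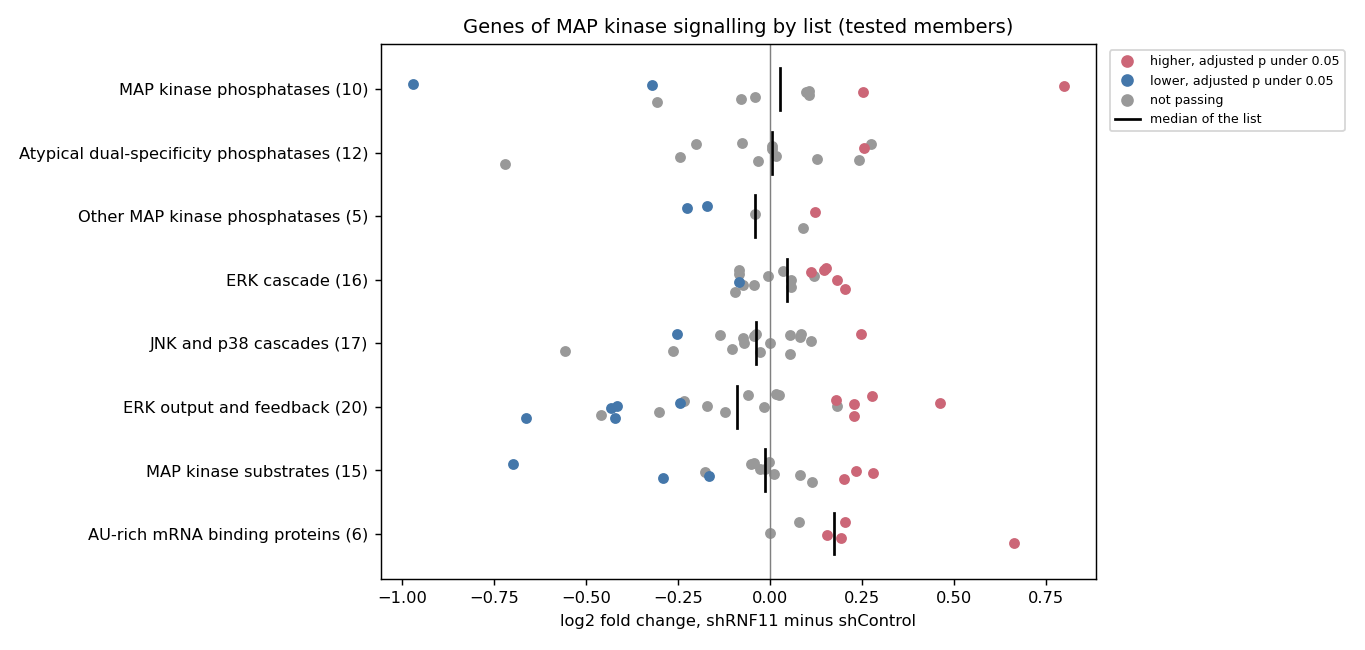
Log2 fold change (horizontal axis, shRNF11 minus shControl) of the tested genes in each list of MAP kinase signalling, with the number tested beside the name. Points are genes coloured by call and black lines are list medians. DUSP1 at 0.80 and DUSP8 at -0.97 are the outermost points of the phosphatase row. The JNK and p38 cascade row holds 2 called genes of 17 (11.8%, against 32.1% of all tested genes).

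DUSP1 is also a classical glucocorticoid-induced gene. In a list of that kind 5 of 5 tested genes were higher, against 17.4% of all tested genes. The list was chosen with earlier results of these data known, so nothing is read from its count. TSC22D3 was 1.51-fold, KLF9 1.78-fold, PER1 6.80-fold, FKBP5 2.11-fold and ERRFI1 1.29-fold higher, and ZBTB16 had too few reads to test. DUSP1 was 1.74-fold higher, and the part of dexamethasone in that difference was not tested.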

How the data were processed

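The authors deposited raw read counts per gene for 6 total RNA libraries, with symbols, Entrez numbers and annotation terms. Per the submitters' processing notes, fastp, HISAT2 and HTSeq were used; the sources used here give neither their versions nor the genome build nor the strand setting. Because the table is human and the reference at hand is mouse, no sequences or coordinates are printed.

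Genes were kept by filterByExpr (minimum count 10), which left 13489 of 20499, scaled by TMM and tested in edgeR 4.0.16 (R 4.3.3) by its quasi-likelihood test. The model held group alone, and p-values of the tested genes were adjusted together (Benjamini-Hochberg). A gene was called at an adjusted p under 0.05. SE is the size of the log2 fold change over the root of its F statistic (median 0.0711). The fit was tested on simulated data. The members and lists were chosen with earlier results of these data known. Named genes are the 10 members, RNF11 and, from each list, up to 4 called genes with the smallest p and no overlap between groups; 1 gene that this rule names is not reported here, and other genes were chosen after their values were seen. Alternatives were other scalings and filters, DESeq2 1.42.0, limma-voom 3.58.1, a replicate block and leaving out each library. The mean chi-square per gene was 3.79 to 5.85 within groups, so no library was a duplicate of another.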

Additional observations from a re-analysis of the deposited data

How the results depend on the processing

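Over 13 alternative settings DUSP1 (log2 fold change 0.73 to 0.82), DUSP8 (-1.12 to -0.82), DUSP16 (-0.38 to -0.27) and RNF11 (-1.80 to -1.70) kept their direction and their side of the threshold. The DUSP2 call was lost with scaling by library totals, with no filter, with a filter at a mean of 5 CPM and without any 1 library but shRNF11 replicate 3. Between 3 and 5 of the 10 members passed. With 1 library left out, DUSP4 ranged from -0.065 to 0.00082, DUSP9 from -0.11 to 0.27 and DUSP10 from -0.21 to 0.066. The sign turned without shRNF11 replicate 3 for DUSP4 and DUSP9 and without shRNF11 replicate 2 for DUSP10, none of which passed there, and the filter at 5 CPM removed DUSP9 and DUSP10. The number of genes called was 4336, and 3478 to 3978 when 1 library was left out; in the lists it was 37, and 34 to 37. Of the called genes, 54.2% were higher with TMM factors and 29.1% with library totals alone (1335 higher, 3255 lower), and that scaling moved the median log2 fold change of all genes from -0.01 to -0.07. It raised the number of called atypical phosphatases from 1 to 3 and of JNK and p38 cascade genes from 2 to 4. Atypical phosphatases called were 2 at a mean of 5 CPM and without shControl replicate 2 or shRNF11 replicate 2. Libraries of the same number did not deviate together (correlations of -0.02 to -0.01). That does not settle whether they shared a culture or a batch. With a replicate block 4399 genes and 4 members passed, DUSP1 at 0.80. Counts under 100 per library limit what DUSP9 and DUSP10 can show.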

Other observations

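In the deposited annotation 13 genes carry the broader term MAP kinase tyrosine/serine/threonine phosphatase activity, the 10 members and DUSP14, DUSP18 and DUSP21. DUSP18 was at 2.98 ± 0.175 CPM in shControl and 2.99 ± 0.190 CPM in shRNF11 (SD, n = 3 each; log2 fold change 0.01, SE 0.201), and DUSP21 had 1 read in all 6 libraries. The KEGG MAPK signaling pathway of the table, read after the values of the members were seen, holds 199 tested genes beside the 10 phosphatases. Of these 199, 40 were higher, 36 lower and 123 did not pass. Thus 38.2% were called, against 32.1% of all tested genes, with a median log2 fold change of -0.03.

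Among the 9 listed markers of other cell types, 6 were tested, 1 was called higher and 1 lower. The higher one, the collagen gene COL1A2 (log2 fold change 1.42, edgeR adjusted p = 0.0114), varied widely within both groups, which overlapped. It was at 4.03, 0.417 and 0.491 CPM in the 3 shControl libraries and 0.429, 5.44 and 7.36 CPM in the 3 shRNF11 libraries. COL1A1, which did not pass, was at 38.04, 23.9 and 27.8 CPM and 19.1, 33.0 and 32.2 CPM, likewise highest in shControl replicate 1 among shControl and lowest in shRNF11 replicate 1 among shRNF11. The lower one was CD68 (log2 fold change -0.18, adjusted p = 0.00857). The DUSP1 levels of the same libraries were 162.5, 154.9 and 159.6 CPM and 276.1, 283.4 and 269.8 CPM, with no overlap between the groups. Whether the DUSP1 levels are related to the presence of other cell types was not tested.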
